A study of Mus musculus with 24 samples.

Results

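The chaperone genes of the cytosol, endoplasmic reticulum (ER) and mitochondria were followed in 24 mouse hearts. They were chosen by gene symbol alone: the Hsp70 genes (Hspa), the mitochondrial chaperonin Hspd1 with Hspe1, Hsph1, the Hsp90 genes, the J protein genes (Dnaja, Dnajb and Dnajc), the protein disulfide isomerase genes (Pdia), the cytosolic chaperonin subunits (Cct2 to Cct8) and 10 named ER genes. This gave 85 of the 19664 rows of the expression table, and 73 of the 85 reached 1 FPKM in at least 6 hearts and were tested among 12020 rows. FPKM divides a gene's fragments by its transcript length and by the size of the library, so levels of different genes can be compared per length. Rows that join several gene symbols were left out, which removed Dnaja1 and Pdia4.

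The hearts came from adult, untreated C57BL/6J mice of 4 genotypes with 6 hearts each, 3 from males and 3 from females. WT mice carried no transgene, OGA_TG mice carried a cardiac-specific OGA transgene, OGT_TG mice a cardiac-specific OGT transgene, and DTG mice both. OGT attaches O-linked N-acetylglucosamine to nuclear, cytosolic and mitochondrial proteins, and OGA removes it. The promoter that drives the transgenes is not given in the sources used here.

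Chaperones bind unfolded stretches of a protein and let it fold instead of clumping. Hsp70 proteins do so with the help of J proteins, which deliver clients and trigger ATP hydrolysis, and of nucleotide exchange factors, which release them. Each compartment has its own set: the cytosolic set is controlled by heat shock factors, the ER set by the unfolded protein response, and the mitochondrial set serves import and folding in the matrix.

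The transgenes separated the groups in all 24 hearts. The OGT row stood at 715 to 2691 FPKM in OGT_TG, at 3986 to 5261 FPKM in DTG and at no more than 3.44 FPKM in WT and OGA_TG, and the OGA row stood at 3065 FPKM or more in OGA_TG and DTG and at no more than 0.0222 FPKM elsewhere. OGT_TG hearts 3 and 6 stood apart, with scores of 52.7 and 52.9 on the first principal component (40.8% of the variance) against 11.4 to 17.9 for the other OGT_TG hearts. Their OGT rows, at 1104 and 715 FPKM, were the lowest of the group, against 1691 to 2691 in the other OGT_TG hearts. Results on OGT_TG that rest on hearts 3 and 6 are given with and without both. Each title begins with a number, and for OGA_TG and DTG this number and the genotype cannot be told apart. Marker genes of other cells moved with genotype: in OGT_TG against WT all 8 fibroblast markers and 4 of 7 macrophage markers rose, while 6 of 6 cardiomyocyte markers fell. The summed fibroblast markers ran from 487 to 637 FPKM in WT, from 892 to 1937 in OGT_TG and from 524 to 837 in DTG. The summed cardiomyocyte markers ran from 48980 to 55100 FPKM in WT, from 35060 to 46960 in OGT_TG and from 41050 to 45010 in DTG, and no marker was at 0 in a WT heart.

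The stretches of promoter that match the ER stress element, most of them in ER folding genes, are shown first. The ER stress element, bound by ATF6 with NF-Y, was searched on both strands as CCAAT, any 9 bases, then CCACG, from 250 bases before to 50 after each annotated start. Sequences are from RefSeq on GRCm38.p6, the release of the mm10 build used for the table, and 69 of the 85 genes had an entry. The element was found in 7 of these 69 promoters (10.1%), against 0.137% of the 27025 genes in the promoter table. Of the 10 ER folding genes with an entry 6 held it, and the other holder was Dnajc3, 1 of 9 ER J protein genes. It was in 0 of the 4 ER stress signalling and degradation genes. Each stretch is written 5′ to 3′ on the strand of its gene, with the element in capitals. In Calr, Creld2 and the second Hsp90b1 stretch the element lies on the opposite strand, so it reads CGTGG, 9 bases, ATTGG.
Hspa5, chr2:34772013-34772055, plus strand: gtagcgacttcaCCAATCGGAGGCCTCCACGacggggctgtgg
Hsp90b1, chr10:86705626-86705668, minus strand: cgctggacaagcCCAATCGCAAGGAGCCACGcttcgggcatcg
Hsp90b1, chr10:86705521-86705563, minus strand: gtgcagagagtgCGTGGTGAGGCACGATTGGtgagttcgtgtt
Calr, chr8:84847063-84847105, minus strand: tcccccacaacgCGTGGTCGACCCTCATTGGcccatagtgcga
Canx, chr11:50325788-50325830, minus strand: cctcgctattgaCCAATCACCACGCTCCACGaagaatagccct
Creld2, chr15:88819508-88819550, plus strand: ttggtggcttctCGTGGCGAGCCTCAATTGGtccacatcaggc
Pdia6, chr12:17266479-17266521, plus strand: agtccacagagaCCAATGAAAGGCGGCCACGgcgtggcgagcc
Dnajc3, chr14:118937815-118937857, plus strand: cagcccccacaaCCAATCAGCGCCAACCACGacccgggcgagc

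The whole 250 bases before the start of Hspa5 are shown because Hspa5 is the most abundant ER chaperone here. They lie at chr2:34771840-34772089 on the plus strand, with the element in capitals.
Hspa5 upstream: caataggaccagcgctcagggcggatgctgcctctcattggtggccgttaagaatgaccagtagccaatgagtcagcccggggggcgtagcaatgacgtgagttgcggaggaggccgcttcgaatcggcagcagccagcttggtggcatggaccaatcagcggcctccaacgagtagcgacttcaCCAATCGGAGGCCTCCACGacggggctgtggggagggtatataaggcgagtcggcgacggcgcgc

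The heat shock element was searched as 3 alternating GAA and TTC units with 2 bases between units. It was found in 4 of the 69 promoters (5.8%), those of Dnajb6, Hsph1, Hspd1 and Hspe1, against 0.662% of all genes in the table. Hspd1 and Hspe1 are neighbours read in opposite directions, and their promoters hold the same stretch, in which 2 matches overlap. The stretches of Dnajb6 and Hspe1 are shown with 1 match each in capitals, to set beside their values below, and the single Hsph1 match lies after both of its annotated starts. Hsp90aa1 and Hsp90ab1 had no entry and were not searched. The element of ATF4, searched as TGATGNAA on both strands, was found in 2 of the 69 promoters (2.9%), those of Herpud1 and Hspa14, against 4.51% of all genes. A match describes the letters and no binding was measured.
Dnajb6, chr5:29735840-29735876, plus strand: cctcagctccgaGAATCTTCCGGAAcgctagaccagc
Hspe1, chr1:55088047-55088083, plus strand: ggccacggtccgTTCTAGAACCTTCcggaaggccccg

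In WT hearts the 85 genes together held 1.03% of the summed FPKM. The cytosolic Hsp70 genes summed to 1006 ± 75.9 FPKM (SD, n = 6), the mitochondrial genes to 1014 ± 60.4, the ER folding genes to 966 ± 99.5 and the Hsp90 genes to 748 ± 48.3. Hspa8 (906 FPKM on average) made up most of the cytosolic Hsp70 sum and Hsp90ab1 (685 FPKM) most of the Hsp90 sum. The highest genes by mean were Hspa9 (343 FPKM) in mitochondria and Hspa5 (270 FPKM) in the ER. The next levels in the ER were those of Hsp90b1 at 191 ± 28 FPKM and Calr at 187 ± 15.5 FPKM, which overlapped in range. The heat-inducible Hsp70 genes were nearly silent, with Hspa1a at 0.355 ± 0.234 FPKM and Hspa1b at 0.213 ± 0.129 FPKM in WT.

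Genotype comparisons were made with limma on log2(FPKM + 1), a scale that understates changes of low genes, and a gene was called when its p, adjusted over the 12020 rows, was under 0.05. The hearts were measured in bulk, so fewer cells of a type and less RNA per cell cannot be told apart. All comparisons with WT share the WT hearts. In OGT_TG against WT, 19 of 73 chaperone genes rose and 12 fell, where 25.2% of all tested rows rose and 12.2% fell. The rises were near the share of all rows, and the median over the 73 genes was 0.04 log2 against 0.07 over all rows. In DTG against WT, 7 rose and 20 fell, against 4.21% and 11.4% of all rows. In DTG against OGT_TG, 5 of 73 rose (5.02% of all rows) and 23 fell (27.2%), while all tested rows had a median of -0.11. Both counts lay near the shares of all rows. In DTG against OGA_TG, 3 rose (8.33% of all rows) and 21 fell (9.77%).

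The balance of rises and falls depended on the scaling of the libraries. In OGT_TG against WT it was 23 and 10 after scaling to an equal sum, 12 and 20 after median-of-ratios scaling and 13 and 15 after quantile normalization. For DTG against WT the same scalings gave 7 and 8, 8 and 14, and 7 and 13. In DTG against OGT_TG they gave 5 and 20, 13 and 7, and 8 and 11, and the median over all rows moved to 0.01 under median-of-ratios scaling. A total of 14 of the 31 calls in OGT_TG against WT passed in each of the other 34 settings run on hearts of both sexes, and 14 of the 27 in DTG against WT passed in each of up to 33. Single-sex fits, with 3 hearts a group, called fewer genes.

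**Figure D1:**
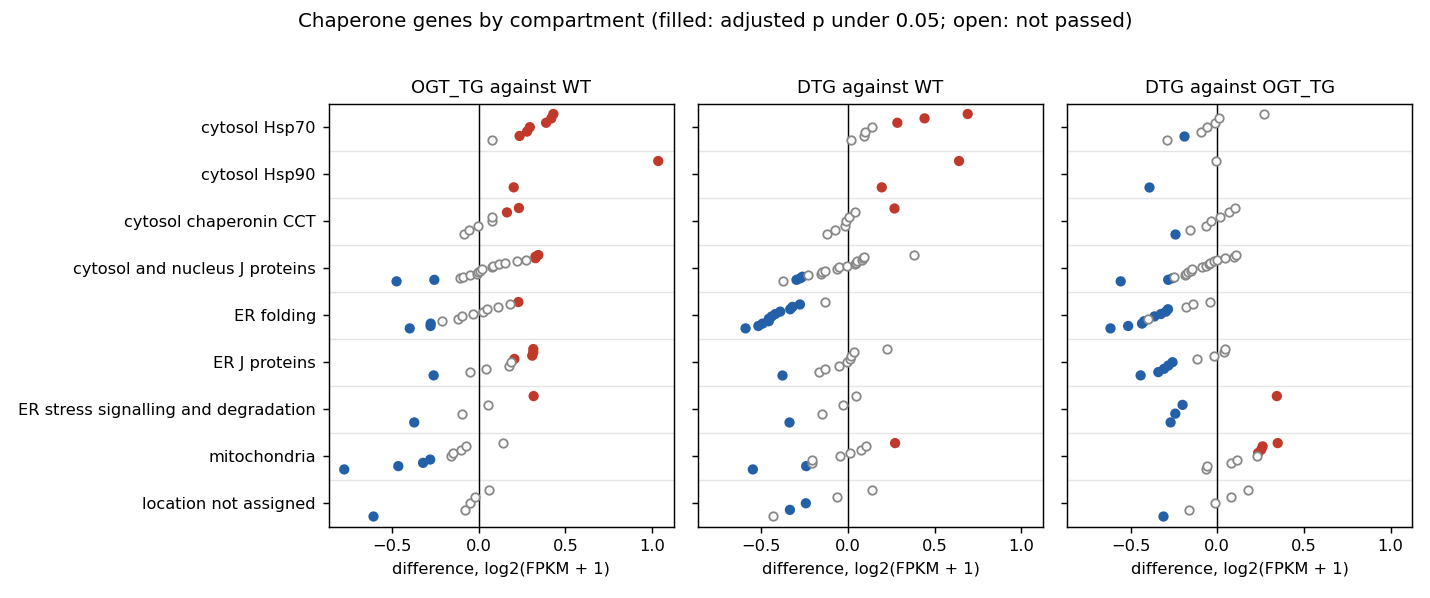
Difference of each tested chaperone gene on the log2(FPKM + 1) scale (x axis) by compartment (rows) in 3 comparisons; each point is 1 gene, red points rose and blue points fell at an adjusted p under 0.05, and open points did not pass. In the ER folding row 11 of 12 points are blue and left of 0 for DTG against WT, while both Hsp90 points are red in both comparisons with WT.

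Cytosolic Hsp70 and Hsp90 genes were higher in OGT_TG than in WT. Of the 9 tested, 8 rose, with a median of 0.30 log2 over all 9, where 25.2% of all tested rows rose. Without OGT_TG hearts 3 and 6, 5 of 9 rose, and 5 rose with median-of-ratios scaling and also with quantile normalization. In DTG against WT 5 of the 9 rose, where 4.21% of all rows rose: Hsph1, Hsp90aa1, Hspa1l, Hspa4l and Hsp90ab1. Each of these 5 calls held under every scaling and without any single heart. Hspa1l was at most 0.973 FPKM in WT and met the expression minimum only through transgenic hearts, so its rises are not independent of the filter. With a filter of 5 FPKM, which left out Hspa1l and Hspa2, 6 of 7 rose in OGT_TG and 4 of 7 in DTG against WT. In OGA_TG against WT 8 of the 9 were higher and none passed. The median over the 9 was 0.192 log2 there and 0.195 in DTG against WT.

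Hsp90aa1, the stress-inducible Hsp90, showed the largest rise among the chaperones in OGT_TG. It stood between 51.1 and 72.4 FPKM in WT (median 63.6) and between 103 and 166 in OGT_TG (median 126), so the groups did not overlap. The difference was 1.04 log2 (SE 0.14, adjusted p = 5.11e-06), and 0.89 without OGT_TG hearts 3 and 6, the highest at 166 and 153 FPKM. In DTG it ranged from 78.0 to 156 FPKM, all above WT, a difference of 0.64 (SE 0.14, adjusted p = 0.00228) that was 0.50 without DTG heart 1. The difference between DTG and OGT_TG of -0.40 (adjusted p = 0.0291) lost its call under median-of-ratios scaling (-0.25) and quantile normalization (-0.30), without both OGT_TG hearts 3 and 6 (-0.25) and when either of these or any of DTG hearts 2 to 6 was left out (-0.54 to -0.32 over single hearts).

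Hsp90ab1, the constitutive Hsp90, moved less and from a far higher level. It ran from 620 to 742 FPKM in WT, from 712 to 824 in OGA_TG, from 749 to 847 in OGT_TG and from 749 to 869 in DTG. All OGT_TG and DTG hearts lay above all WT hearts, with differences of 0.20 (SE 0.05, adjusted p = 0.00478) and 0.20 (SE 0.05, adjusted p = 0.0145). OGA_TG hearts overlapped WT, and DTG differed from OGA_TG by 0.003, which did not pass. The call in OGT_TG was lost under median-of-ratios scaling, at 0.11. Within a heart, the ratio of Hsp90aa1 to Hsp90ab1 averaged 0.0916 in WT (0.0824 to 0.103), 0.0924 in OGA_TG, 0.166 in OGT_TG (0.133 to 0.201) and 0.127 in DTG (0.102 to 0.179). This ratio was chosen after the values were seen and was not tested. The OGT_TG hearts lay above the WT hearts on it.

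The nucleotide exchange factors of the Hsp110 family are Hsph1, Hspa4 and Hspa4l. Hsph1 stood at 16.1 to 20.6 FPKM in WT (median 17.1), 19.5 to 29.6 in OGT_TG (median 23.6) and 21.7 to 47.3 in DTG (median 27.0). DTG lay wholly above WT, and OGT_TG overlapped it. It rose in DTG by 0.69 log2 (SE 0.14, adjusted p = 0.00123), or 0.54 without DTG heart 1. The OGT_TG rise of 0.42 (adjusted p = 0.0187) did not hold with median-of-ratios scaling (0.33), with quantile normalization (0.35) and without OGT_TG heart 3 (0.36). Hspa4 ran from 45.4 to 51.4 FPKM in WT and from 54.8 to 63.9 in OGT_TG without overlap, a rise of 0.28 (SE 0.06, adjusted p = 0.000537). Its difference of 0.09 in DTG against WT did not pass (adjusted p = 0.308). Hspa4l rose by 0.30 in OGT_TG and by 0.29 in DTG against WT (adjusted p = 0.00535 and 0.0158).

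Hspa8, the constitutive Hsp70, was the most abundant chaperone gene in every group by mean. It ran from 803 to 974 FPKM in WT, from 953 to 1141 in OGT_TG and from 855 to 1334 in DTG. The groups overlapped, and the OGT_TG rise of 0.24 log2 (SE 0.08, adjusted p = 0.0305) was lost when medians of ratios set the scale (0.14), without both OGT_TG hearts 3 and 6 (0.22) and without OGT_TG heart 3 (0.22) or 5 (0.22) or WT heart 3 (0.22) or 6 (0.20). Hspa1l and Hspa2, Hsp70 genes known from testis, were low: Hspa1l averaged 0.861 FPKM in WT and 1.55 in OGT_TG, and Hspa2 1.97 and 2.89. Their OGT_TG rises, 0.43 and 0.39 (adjusted p = 0.00666 and 0.0177), were lost without OGT_TG hearts 3 and 6, at 0.27 and 0.25, and with quantile normalization, at 0.28 and 0.26. The call of Hspa2 was also lost without OGT_TG heart 3 (0.34) or 6 (0.32) or WT heart 6 (0.33). Hspa14, a ribosome-associated Hsp70, differed by 0.08 log2 in OGT_TG against WT and did not pass.

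Hspa1a and Hspa1b, the heat-inducible Hsp70 genes, are near-identical copies whose fragments may be split between them, so their separate values are uncertain. Both were below the expression minimum for testing. Hspa1a reached 5.69 FPKM in DTG heart 1 and at most 1.03 FPKM in each of the other 23 hearts, and Hspa1b reached 3.53 FPKM in DTG heart 1 and at most 0.694 elsewhere. The same heart was the highest of its group for Hsph1, Hsp90aa1, Hsp90ab1, Hspa8 and Dnajb1, the J protein that partners Hsp70 in the cytosol (22.6 FPKM against 8.17 to 12.6 in the other DTG hearts).

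**Figure D2:**
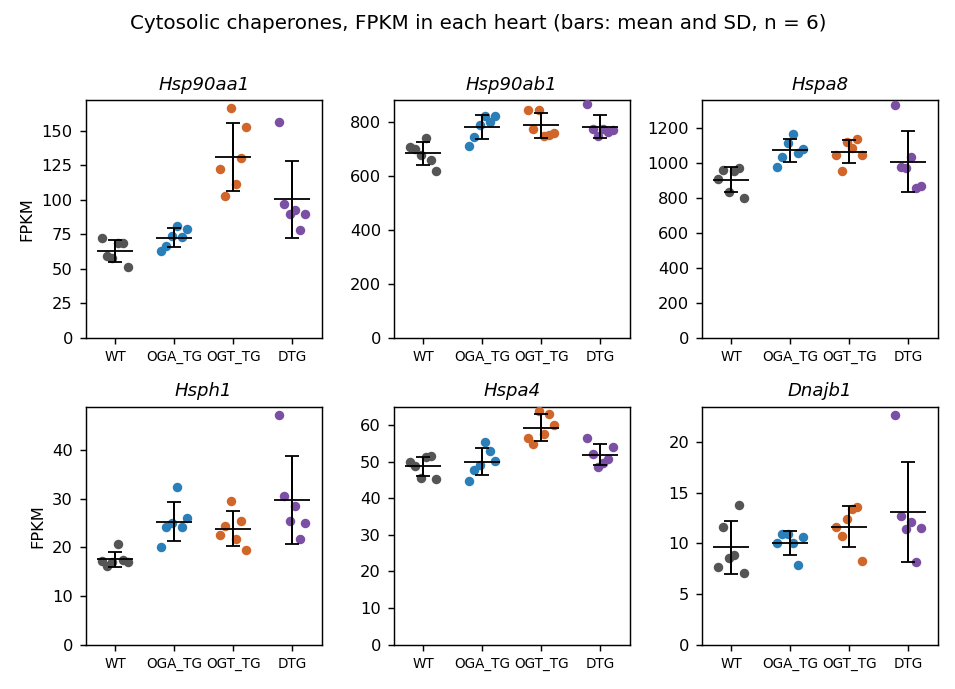
FPKM (y axis, from 0) of 6 cytosolic chaperone genes in each of the 6 hearts of the 4 genotypes (x axis); black bars show the mean and SD. All OGT_TG and DTG hearts lie above all WT hearts for Hsp90aa1 and Hsp90ab1, and DTG heart 1, the first DTG point, is the highest of its group in all 6 panels.

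The cytosolic chaperonin CCT, a ring of 8 subunits that folds actin and tubulin, showed little movement. The 7 tested subunits averaged between 62.6 FPKM (Cct8) and 113 FPKM (Cct6a) in WT, and the remaining subunit gene of the ring, Tcp1, averaged 110 ± 9.04. Only Cct3 and Cct8 rose in OGT_TG against WT, where 25.2% of all rows rose. Cct3 ran from 61.4 to 70.7 FPKM in WT, 70.8 to 79.9 in OGT_TG and 77.2 to 86.3 in DTG, and both transgenic groups lay above WT. It was higher by 0.16 in OGT_TG and by 0.26 in DTG (SE 0.05 each, adjusted p = 0.0074 and 0.00038), and the first of these calls was lost under median-of-ratios scaling (0.07) and without OGT_TG hearts 3 and 6 (0.12). Cct8 rose by 0.23 in OGT_TG (SE 0.07, adjusted p = 0.00734), lost under median-of-ratios scaling at 0.14, and its difference in DTG against WT was -0.01. Differences of Cct2, Cct4, Cct5, Cct6a and Cct7 from WT lay between -0.12 and 0.08 log2 in OGT_TG and DTG and did not pass. The testis form Cct6b stayed at or under 0.290 FPKM in all hearts.

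Among the 18 tested J protein genes of cytosol and nucleus, 3 rose and 2 fell in OGT_TG against WT, where 25.2% and 12.2% of all rows did. In DTG against WT 3 fell, where 11.4% of all rows fell. Dnajb6, which blocks aggregation of misfolded proteins, ran from 40.0 to 49.1 FPKM in WT and from 50.6 to 60.0 in OGT_TG. The groups did not overlap, and the rise was 0.34 log2 (SE 0.06, adjusted p = 0.00013). Dnaja4 likewise did not overlap, from 40.1 to 46.9 FPKM in WT and from 50.6 to 60.1 in OGT_TG, a rise of 0.33 (SE 0.07, adjusted p = 0.000588). In DTG both were lower than in OGT_TG, a difference of -0.26 and -0.28 (adjusted p = 0.00263 and 0.00299), calls that were lost under median-of-ratios scaling. Dnajc2, a ribosome-associated J protein, rose in OGT_TG by 0.33 (adjusted p = 0.00734), or 0.22 without hearts 3 and 6, where it did not pass.

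Dnajb5 fell in OGT_TG, from 27.8 to 49.7 FPKM in WT to 26.1 to 29.9. The WT hearts spread widely and the ranges overlapped. The fall was -0.47 log2 (SE 0.14, adjusted p = 0.0103). Dnajc12 fell by 0.26 in OGT_TG (adjusted p = 0.0316, and 0.0627 with the title number as a block) and fell by 0.28 in DTG (adjusted p = 0.0444). The first call was lost without OGT_TG hearts 3 and 6 (-0.16), and also without OGT_TG heart 3 or 6 or WT heart 1 or 4 (-0.31 to -0.20 over single hearts). The second was lost under each of the 3 scalings and when any 1 of 12 hearts was left out (-0.33 to -0.22). Dnajc21, a ribosome assembly factor, fell by 0.26 in DTG (adjusted p = 0.00984), a call lost after scaling to an equal sum (-0.20). Dnajc9, a histone chaperone, fell by 0.30 (adjusted p = 0.0467), a call lost under each of the 3 scalings and when any 1 of 17 hearts was left out (-0.36 to -0.23). Dnajb1 differed by 0.27 in OGT_TG and 0.38 in DTG against WT and did not pass (adjusted p = 0.218 and 0.138). It had the widest spread between hearts of 1 genotype among the 73 genes, with a residual SD of 0.32 log2, against a median of 0.16 over all tested rows.

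The ER folding genes were lower in DTG than in WT and OGA_TG, and lower than in OGT_TG by an amount that moved with the scaling. All 12 tested genes had values below WT, and 11 of the 12 fell, with a median of -0.43 log2, where 11.4% of all tested rows fell. Against OGA_TG 11 fell (median -0.41), where 9.77% of all rows fell, and against OGT_TG 8 fell (median -0.34), where 27.2% of all rows fell and the median over all rows was -0.11. That last count was 4 under median-of-ratios scaling (median -0.20, with 1 of the 12 genes higher in DTG) and 5 after quantile normalization (median -0.26). The summed FPKM of the ER folding genes was 966 ± 99.5 in WT, 965 ± 179 in OGA_TG, 876 ± 34.0 in OGT_TG and 738 ± 54.0 in DTG (SD, n = 6 each). The 6 DTG hearts, at 683 to 826 FPKM, lay below the 840 to 1133 FPKM of the WT hearts.

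The count in DTG against WT was 6 of 12 after scaling to an equal sum, 9 when medians of ratios were used and 8 after quantile normalization, and all 12 genes stayed below WT in each. In males alone the median was -0.36 and in females alone -0.50, with all 12 below WT in both sexes and 1 gene called in each. Of the cell markers in DTG against WT, 3 of 6 for cardiomyocytes fell and none of 8 for fibroblasts passed, with a fibroblast median of 0.43 log2. Their part in the ER values was not tested.

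Hspa5, also called BiP, is the Hsp70 of the ER. It ran from 220 to 331 FPKM in WT (median 267), 229 to 365 in OGA_TG (median 239), 176 to 224 in OGT_TG (median 208) and 175 to 234 in DTG (median 195). Only 1 WT heart, at 220 FPKM, reached into the range of the OGT_TG and DTG hearts. It fell by 0.40 log2 in OGT_TG (SE 0.11, adjusted p = 0.0049) and fell by 0.44 in DTG against WT (SE 0.11, adjusted p = 0.00596). OGT_TG and DTG differed by -0.04 (adjusted p = 0.793). Without OGT_TG hearts 3 and 6 the OGT_TG fall was -0.32 (adjusted p = 0.0451).

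Hyou1, the nucleotide exchange factor of Hspa5, followed the same order of groups. It stood at 13.8 to 19.6 FPKM in WT, 10.96 to 14.04 in OGT_TG and 9.90 to 13.1 in DTG, and DTG lay wholly below WT. The falls were -0.28 in OGT_TG and -0.42 in DTG (SE 0.08 each, adjusted p = 0.00869 and 0.000898). Hsp90b1, the Hsp90 of the ER, ran from 159 to 235 FPKM in WT, 153 to 189 in OGT_TG and 135 to 162 in DTG. Against WT it differed by -0.10 in OGT_TG (adjusted p = 0.519) and fell by 0.39 in DTG (SE 0.11, adjusted p = 0.0151), a call lost after scaling to an equal sum (-0.33) and under quantile normalization (-0.32). The highest heart for both Hspa5 and Hsp90b1 was OGA_TG heart 4, at 365 and 290 FPKM.

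Calnexin (Canx) and calreticulin (Calr) hold newly made glycoproteins in the ER, and Pdia3 forms their disulfide bonds. The 3 genes did not share a pattern. Canx ran from 104 to 130 FPKM in WT, 75.4 to 102 in OGT_TG and 74.6 to 90.8 in DTG, and both transgenic groups lay wholly below WT. It fell by 0.28 in OGT_TG (adjusted p = 0.00936), or -0.19 without hearts 3 and 6, where it did not pass, and fell by 0.46 in DTG (SE 0.08, adjusted p = 0.000422). Calr ran from 175 to 215 FPKM in WT, 177 to 222 in OGT_TG and 144 to 164 in DTG, so only DTG lay below WT. Its fall in DTG of -0.28 (SE 0.08, adjusted p = 0.025) was lost under each of the 3 scalings (-0.22, -0.23 and -0.21) and without DTG heart 2 (-0.24) or 3 (-0.25) or WT heart 3 (-0.25).

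Pdia3 rose in OGT_TG, from 60.5 to 83.8 FPKM in WT to 75.2 to 99.5, by 0.23 log2 (SE 0.08, adjusted p = 0.0308). The ranges overlapped, and the call was lost with the title number as a block (adjusted p = 0.0601), under median-of-ratios scaling and quantile normalization, without both OGT_TG hearts 3 and 6 (0.16), and without either of these or WT heart 2, 3 or 5 (0.18 to 0.27 over single hearts). In DTG it stood at 58.4 to 73.1 FPKM, wholly below OGT_TG, a difference of -0.36 (SE 0.08, adjusted p = 0.00212). It was the ER folding gene whose difference from WT in DTG, -0.13, did not pass (adjusted p = 0.298).

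The other disulfide isomerases had larger falls in DTG. Pdia6, which also tempers the stress sensors of the ER, ran from 49.4 to 70.3 FPKM in WT, 41.1 to 57.7 in OGT_TG and 35.7 to 42.4 in DTG. DTG lay wholly below WT, and the fall was -0.49 (SE 0.09, adjusted p = 0.000416). Pdia5 was low, at 3.73 to 5.79 FPKM in WT and 1.93 to 3.38 in DTG, again without overlap, and fell by 0.59 (SE 0.15, adjusted p = 0.0106). In OGT_TG, Pdia6 differed by -0.21 and Pdia5 by 0.03, and neither passed. Without hearts 3 and 6 the values were -0.305 for Pdia6, which then passed (adjusted p = 0.0132), and -0.18 for Pdia5, which did not.

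Manf, a small ER protein that binds Hspa5, ran from 34.1 to 57.2 FPKM in WT, 38.5 to 43.8 in OGT_TG and 28.5 to 35.8 in DTG. DTG lay wholly below OGT_TG and overlapped WT by 1 heart on each side. It fell by 0.46 against WT (SE 0.12, adjusted p = 0.0113). Sdf2l1, a partner of the Hspa5 system, fell by 0.52 (adjusted p = 0.0261) from 3.49 to 6.15 FPKM in WT to 1.88 to 3.36 in DTG. That call was lost after scaling to an equal sum (-0.47) and without DTG heart 2 (-0.50), 3 (-0.50) or 4 (-0.47) or WT heart 3 (-0.46) or 5 (-0.49). Creld2, which is induced by ER stress, fell by 0.33 (adjusted p = 0.0407), a call lost under each of the 3 scalings and when any 1 of 9 hearts was left out (-0.40 to -0.27). Hspa13, an Hsp70-like protein of microsomes, fell by 0.32 (adjusted p = 0.0146), lost only after scaling to an equal sum among the settings run on both sexes.

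Of the genes whose promoters hold the ER stress element, Hspa5, Hsp90b1, Calr, Canx, Creld2 and Pdia6 fell in DTG against WT, and Dnajc3 differed by -0.05 and did not pass. Of the 4 ER folding genes with an entry and no match, Pdia5 and Sdf2l1 fell, Pdia3 did not pass, and Pdia2 was listed at 0 in most hearts and was not tested.

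**Figure D3:**
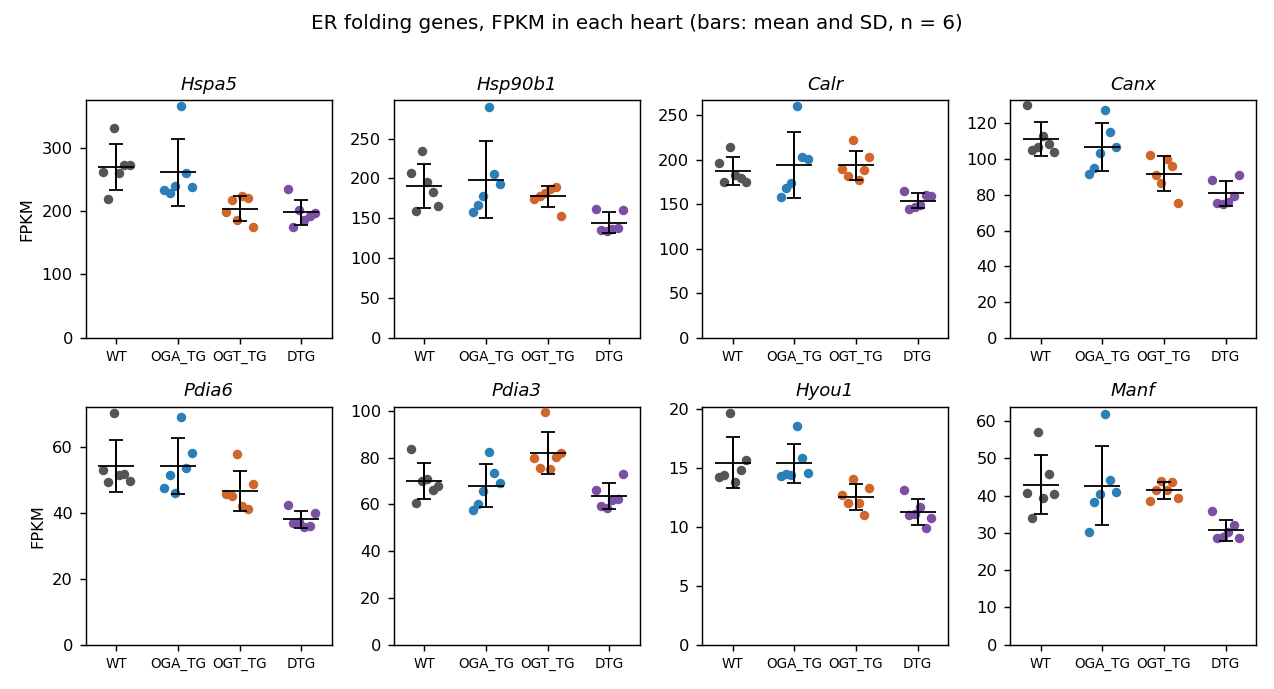
FPKM (y axis, from 0) of 8 ER folding genes in each of the 6 hearts of the 4 genotypes (x axis); black bars show the mean and SD. DTG hearts are the lowest group by mean in all 8 panels, while OGT_TG hearts are near DTG for Hspa5 and Hyou1 and above it for Calr, Manf and Pdia3.

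Of the 9 J proteins of the ER, 4 rose and 1 fell in OGT_TG against WT, with a median of 0.19 log2, where 25.2% of all rows rose and 12.2% fell. In DTG against WT 1 fell (11.1%), near the 11.4% of all rows. Against OGT_TG, 5 of the 9 fell in DTG, with a median of -0.26, where 27.2% of all rows fell. Dnajc10, a disulfide reductase that unlinks proteins before degradation, ran from 12.9 to 15.8 FPKM in WT, 16.1 to 21.4 in OGT_TG and 11.6 to 14.9 in DTG. OGT_TG lay above both other groups, by 0.31 over WT (SE 0.07, adjusted p = 0.0014), and DTG was below OGT_TG, a difference of -0.44 (SE 0.07, adjusted p = 9.23e-05). Dnajc1 showed the same arrangement, with 6.41 to 8.21 FPKM in WT, 8.81 to 9.53 in OGT_TG and 6.56 to 8.75 in DTG, a rise of 0.32 over WT (SE 0.06, adjusted p = 0.000547).

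Dnajc14 rose in OGT_TG by 0.32 (adjusted p = 0.0022), or 0.185 without hearts 3 and 6, where it passed. Dnajc3, which binds Hspa5 clients in the lumen, rose by 0.21 (adjusted p = 0.0329, and 0.0609 with the title number as a block), and that call was lost when any 1 of 7 hearts was left out (0.16 to 0.25), without OGT_TG hearts 3 and 6 (0.15), and with either median-of-ratios (0.12) or quantile (0.13) normalization. Dnajb11, another luminal partner of Hspa5, differed by 0.17 and did not pass (adjusted p = 0.057, and 0.0475 with the title number as a block), but was lower in DTG than in OGT_TG, a difference of -0.34 (adjusted p = 0.00109) with no overlap, at 22.7 to 29.1 against 30.8 to 35.5 FPKM. Dnajb9, a target of Xbp1 that restrains the stress sensor Ire1, fell in DTG from 27.2 to 34.2 FPKM in WT to 21.8 to 24.05, without overlap, a difference of -0.38 (SE 0.10, adjusted p = 0.0111), lost after scaling to an equal sum at -0.32. Its OGT_TG fall of -0.26 (adjusted p = 0.0429) was -0.11 without hearts 3 and 6 and did not pass there, nor when any 1 of 8 hearts was left out (-0.32 to -0.19). Dnajb12, Dnajb14 and Dnajc16 did not pass in any comparison.

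The ER stress signalling and degradation genes split. Xbp1, the transcription factor of the Ire1 branch, ran from 37.5 to 46.8 FPKM in WT, 34.8 to 44.2 in OGT_TG and 29.5 to 37.1 in DTG. DTG lay below WT, a difference of -0.34 (SE 0.08, adjusted p = 0.00327), and the OGT_TG difference of -0.10 did not pass. The table gives 1 value per gene, so the spliced form of Xbp1 was not measured. Edem1, which marks glycoproteins for degradation, rose in OGT_TG by 0.32 (adjusted p = 0.0148). That call was lost with the title number as a block (adjusted p = 0.0575), under quantile normalization (0.20), without OGT_TG heart 3 (0.23) and without both hearts 3 and 6 (0.18). Hearts 3 and 6, at 6.33 and 5.19 FPKM, were the 2 highest in OGT_TG.

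Herpud1, part of the ER degradation complex, fell in OGT_TG from 79.7 to 86.2 FPKM in WT to 45.9 to 78.8. The groups did not overlap, but hearts 3 and 6, at 47.6 and 45.9 FPKM, stood far below the other 4, at 73.5 to 78.8. The fall of -0.37 (SE 0.11, adjusted p = 0.0104) was -0.14 without them (adjusted p = 0.0743). Sel1l, the adaptor of the same complex, differed by 0.05 in OGT_TG and by -0.15 in DTG against WT, and neither passed. The DTG difference passed in the fit without OGT_TG hearts 3 and 6 (adjusted p = 0.0393).

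In mitochondria, 4 of 9 genes fell in OGT_TG against WT, where 12.2% of all rows fell, with a median of -0.16 log2. Dnajc28 had the largest fall among the chaperones. It ran from 19.97 to 22.8 FPKM in WT, 6.68 to 16.7 in OGT_TG and 13.1 to 15.6 in DTG, and both transgenic groups lay wholly below WT. The falls were -0.78 in OGT_TG (SE 0.15, adjusted p = 0.000306) and -0.55 in DTG (SE 0.15, adjusted p = 0.0131). Hearts 3 and 6, at 8.18 and 6.68 FPKM, were the lowest OGT_TG hearts, and without them the fall was -0.46.

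Dnaja3, the J protein of the matrix Hsp70, ran from 68.5 to 77.2 FPKM in WT, 47.2 to 68.4 in OGT_TG and 59.5 to 66.6 in DTG. Both transgenic groups lay wholly below WT, a difference of -0.32 (SE 0.07, adjusted p = 0.000561) and -0.24 (SE 0.07, adjusted p = 0.0133), the latter lost under each of the 3 scalings. Hearts 3 and 6, at 52.0 and 47.2 FPKM, were the lowest in OGT_TG, and without them its difference was -0.20 and still called. Dnajc19, a J protein of the import motor, fell by 0.46 in OGT_TG (SE 0.10, adjusted p = 0.000637), or -0.31 without hearts 3 and 6. Its DTG difference from WT of -0.21 did not pass (adjusted p = 0.144), but did in the fit without those hearts (adjusted p = 0.0343).

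Hspd1 and Hspe1 form the folding chamber of the matrix and its lid. Hspd1 ran from 223 to 268 FPKM in WT, 147 to 219 in OGT_TG and 217 to 246 in DTG. OGT_TG lay wholly below WT, a difference of -0.28 (SE 0.08, adjusted p = 0.012). Without hearts 3 and 6, at 173 and 147 FPKM, the difference was -0.14 and did not pass (adjusted p = 0.124). Hspe1 did not follow it. Hspe1 ran from 117 to 153 FPKM in WT, 136 to 178 in OGA_TG, 102 to 143 in OGT_TG and 158 to 179 in DTG. All DTG hearts lay above all WT and OGT_TG hearts, by 0.27 (SE 0.08, adjusted p = 0.0218) and 0.35 (SE 0.08, adjusted p = 0.0023). The rise of DTG over WT was lost without WT heart 3 (0.22). DTG and OGA_TG hearts overlapped for Hspe1, and their difference did not pass.

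The ratio of Hspe1 to Hspd1 within a heart averaged 0.584 in WT (0.526 to 0.646), 0.647 in OGA_TG (0.584 to 0.712), 0.672 in OGT_TG (0.626 to 0.714) and 0.727 in DTG (0.681 to 0.749). DTG lay wholly above WT on this ratio, which was chosen after the values were seen and was not tested. Hspa9, the import and folding Hsp70 of the matrix, ran from 311 to 379 FPKM in WT, 252 to 372 in OGT_TG and 325 to 362 in DTG, and did not pass in any comparison. In DTG against OGT_TG 4 of 9 mitochondrial genes rose, where 5.02% of all rows rose. Of these genes 1, Hspe1, also rose without OGT_TG hearts 3 and 6. The DTG rises of Hspd1, Dnajc15 and Dnajc19 over OGT_TG were 0.24, 0.26 and 0.25 with both hearts and 0.10, 0.12 and 0.10 without them. The calls of Hspd1 and Dnajc19 were also lost when any 1 of 5 and 14 hearts was left out (0.16 to 0.28 and 0.18 to 0.32). The remaining gene that rose over OGT_TG was Herpud1 of the ER, by 0.34 (adjusted p = 0.02), or 0.11 without hearts 3 and 6, a call also lost when either of these or DTG heart 3 was left out (0.25 to 0.40 over single hearts). Dnajc11 and Dnajc30 did not pass against WT in OGT_TG or DTG, though Dnajc30 passed in DTG (-0.205) in the fit without OGT_TG hearts 3 and 6 (adjusted p = 0.0496).

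**Figure D4:**
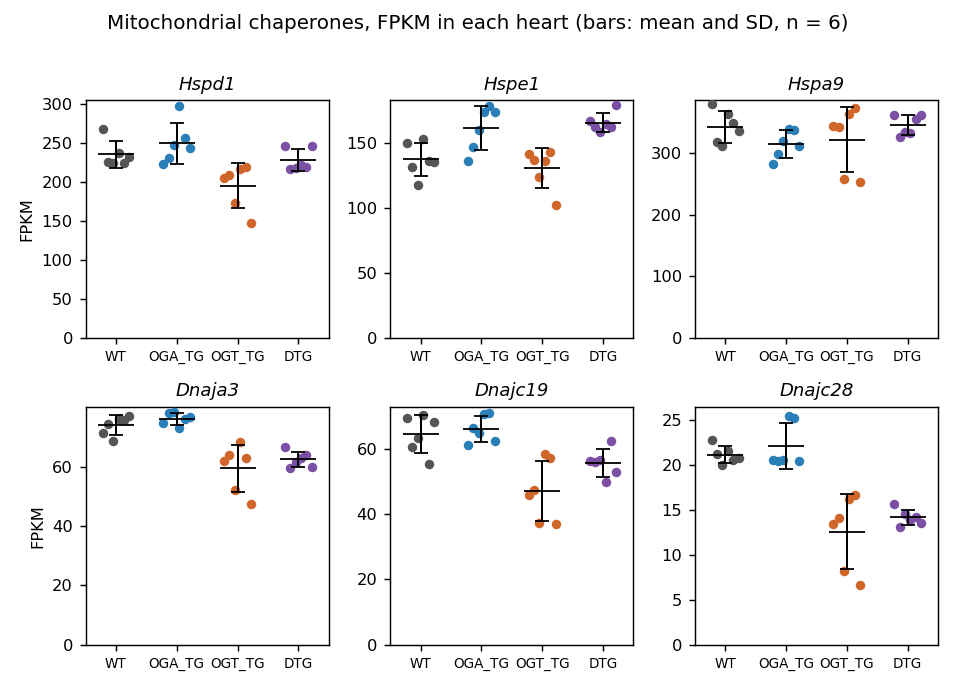
FPKM (y axis, from 0) of 6 mitochondrial chaperone genes in each of the 6 hearts of the 4 genotypes (x axis); black bars show the mean and SD. OGT_TG hearts 3 and 6, the third and the last OGT_TG points, are the lowest hearts for Hspd1, Hspa9 and Dnajc28, and all DTG hearts lie above all WT hearts for Hspe1.

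Of the 8 genes with no single assigned location, 5 were tested. Hspa12a, an atypical Hsp70, fell in OGT_TG from 13.5 to 17.0 FPKM in WT to 6.16 to 15.4, a difference of -0.61 (SE 0.17, adjusted p = 0.00602), or -0.35 without hearts 3 and 6, where it did not pass. Dnajc18 and Dnajc25 fell in DTG against WT, with differences of -0.24 and -0.34 (adjusted p = 0.0187 and 0.0281). Both calls were lost after scaling to an equal sum, Dnajc18 also without DTG heart 2 or WT heart 1 (-0.28 to -0.21 over single hearts) and Dnajc25 also under the other 2 scalings and without DTG heart 3 or 5 or WT heart 1, 4 or 5 (-0.42 to -0.28).

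The 12 genes below the expression minimum were Hspa1a, Hspa1b, Pdia2, Dnajb3, Dnajb7, Dnajc5b, Dnajc5g, Dnajc6, Cct6b, Cct8l1, Dnajc22 and Dnajb13. Except for Hspa1a and Hspa1b in DTG heart 1 and Hspa1a at 1.03 FPKM in 1 OGT_TG heart, none reached 1 FPKM in any heart.

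OGA_TG hearts showed no called chaperone gene against WT with limma: 0 of 73 rose and 0 fell, where 0.0582% and 0.3% of all rows did, and 4 had an unadjusted p under 0.05. These were Hsph1 (0.50 log2, adjusted p = 0.133), Hsp90ab1 (0.19, adjusted p = 0.135), Hspa8 (0.25, adjusted p = 0.277) and Hspe1 (0.23, adjusted p = 0.29). Hsph1 ran from 20.02 to 32.5 FPKM in OGA_TG against 16.1 to 20.6 in WT, overlapping slightly, and Hspa8 from 980 to 1168 against 803 to 974 without overlap. Hsph1 passed when only the 2 groups were fitted (adjusted p = 0.0284) and without DTG heart 1 (adjusted p = 0.0232), and Hsp90ab1 passed under median-of-ratios scaling at 0.25 (adjusted p = 0.0341).

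In DTG against OGA_TG the 3 rises were Hsp90aa1 (0.43, adjusted p = 0.0282), Cct3 (0.22, adjusted p = 0.00131) and Dnajc5 (0.15, adjusted p = 0.0237), a J protein of secretory vesicles. The Hsp90aa1 call was lost without DTG heart 1 (0.29) or OGA_TG heart 1 (0.39) or 2 (0.41), and the Dnajc5 call without OGA_TG heart 1 or DTG heart 4 or 5 (0.13 to 0.18 over single hearts). Besides the ER folding genes, Dnajc28 (-0.60), Dnajc12 (-0.37), Dnajb9 (-0.37), Dnajc18 (-0.36), Xbp1 (-0.33) and Dnaja3 (-0.28) fell. Without OGA_TG heart 4, the highest for Hspa5 and Hsp90b1, the differences of these 2 genes were -0.28 and -0.32 in place of -0.38 and -0.43, and both were still called. Sdf2l1 lost its call without that heart (-0.44 in place of -0.53) or without DTG heart 4 (-0.49).

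The interaction asked whether the difference between OGA_TG and WT recurred between DTG and OGT_TG. It subtracts the difference between OGA_TG and WT from that between DTG and OGT_TG. DTG hearts also held more OGT RNA than OGT_TG hearts (3986 to 5261 against 715 to 2691 FPKM). The higher OGT level and the OGA transgene therefore cannot be told apart here. No chaperone gene was positive, against 1.81% of all rows. A total of 4 of 73 were negative (5.48%), near the 5.49% of all rows. The 4 were Hspa13 (-0.52, SE 0.12, adjusted p = 0.0164), Dnajc10 (-0.50, SE 0.10, adjusted p = 0.00642), Creld2 (-0.50, adjusted p = 0.0495) and Dnajc2 (-0.43, adjusted p = 0.0462). The calls of Hspa13 and Dnajc10 passed in each of the 32 other settings on both sexes. Those of Creld2 and Dnajc2 were lost without OGT_TG hearts 3 and 6 (-0.41 and -0.32) and when any 1 of 19 and 16 hearts was left out, with ranges of -0.56 to -0.43 and -0.50 to -0.35.

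Hspa13 ran from 5.39 to 6.40 FPKM in WT, 5.78 to 7.55 in OGA_TG, 5.70 to 7.83 in OGT_TG and 3.96 to 6.20 in DTG. Only the DTG hearts were low, with 1 of them, at 6.20 FPKM, within the range of the other groups. Dnajc10 stood at 13.6 to 15.6 FPKM in OGA_TG, within the WT range, while the OGT_TG hearts were high and the DTG hearts were not.

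Males and females did not differ by a called chaperone gene in the limma fit over all genotypes. None of 73 rose and none fell in males, where 0.0998% and 0.166% of all rows did, and 4 had an unadjusted p under 0.05, namely Sdf2l1 (-0.31, adjusted p = 0.456), Pdia6 (-0.16), Calr (-0.13) and Cct7 (-0.07), each lower in males.

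Hearts of 1 genotype also varied together, as seen in the residuals of log2(FPKM + 1) after genotype and sex were removed. The pairs were chosen with earlier results of these data known, and 8 of 14 were run, since Hspa1a, Dnaja1 and Pdia4 were not among the tested rows. Permuting hearts within genotype 100000 times gave the two-sided p-values, adjusted over the 8 pairs. The smallest unadjusted p it can give is 1e-05, reached in 3 pairs. Hspa5 varied with Hsp90b1 (Pearson r = 0.886, Spearman rho = 0.733, adjusted p = 2.67e-05 and 0.000587) and with Manf (r = 0.837, rho = 0.677, adjusted p = 4e-05 and 0.00112). Without the 2 hearts farthest from the median of Hspa5, OGA_TG heart 4 and WT heart 3, r was 0.784 and 0.677. Hspd1 varied with Hspa9 (r = 0.925, rho = 0.936, adjusted p = 2.67e-05 and 8e-05, r = 0.916 without 2 hearts) and with Hspe1 (r = 0.819, rho = 0.836, adjusted p = 2.67e-05 and 8e-05, r = 0.767).

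For Hspa5 with Hyou1, r was 0.551 (adjusted p = 0.0181) but rho 0.264 (adjusted p = 0.272), and r fell to 0.232 without the same 2 hearts, so over all 24 hearts that relation rested on them. Hspa5 with Sdf2l1 (r = 0.386, rho = 0.285), Hspa5 with Creld2 (r = 0.18, rho = -0.09) and Cct2 with Cct5 (r = 0.406, rho = 0.392) did not pass by either measure, with adjusted p of at least 0.0685. Without OGT_TG hearts 3 and 6, in 22 hearts, r was 0.768 for Hyou1 and 0.609 for Sdf2l1 with Hspa5 (adjusted p = 0.00206 and 0.00224), and 0.861 for Hspd1 with Hspa9. Leaving out OGA_TG heart 4 and WT heart 3 as well gave 0.591 for Hyou1 and 0.454 for Sdf2l1, so in the 22 hearts r for Hyou1 did not rest on those 2 alone, and its rho was 0.512 (adjusted p = 0.0294). All these values share the library of each heart.

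**Figure D5:**
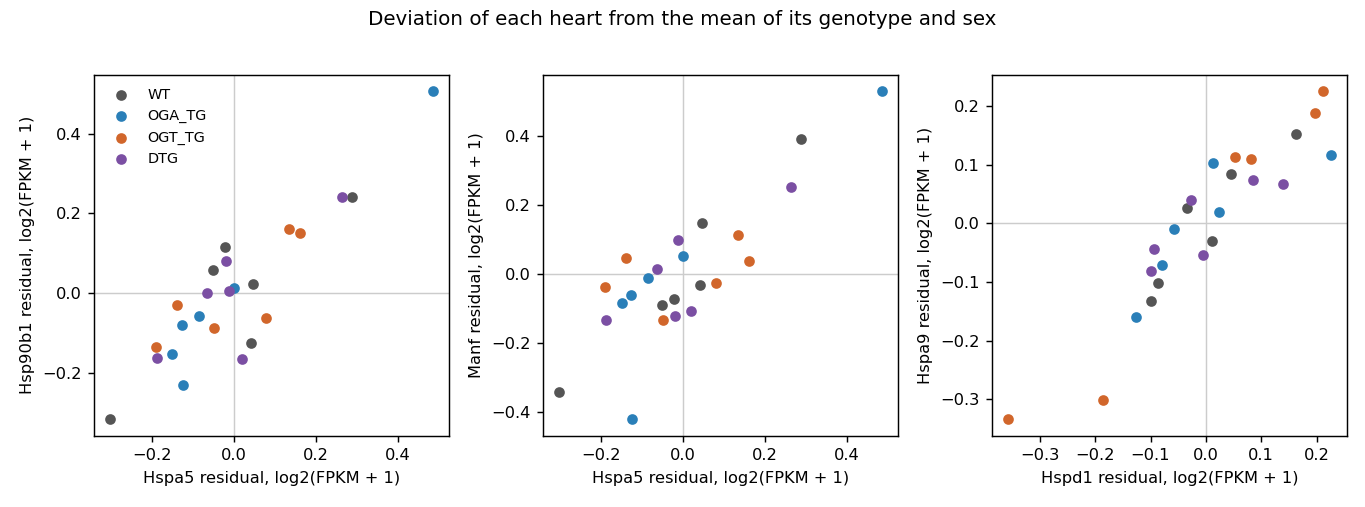
Residual of each of the 24 hearts from the mean of its genotype and sex, in log2(FPKM + 1), for Hsp90b1 against Hspa5, Manf against Hspa5 and Hspa9 against Hspd1; each point is 1 heart, coloured by genotype. The points rise together in all 3 panels, with r of 0.886, 0.837 and 0.925, and OGA_TG heart 4 is the far upper right point in the first 2.

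Genes that work with the chaperones but were outside the symbol rule gave the setting. Among 23 tested genes of the unfolded protein response and ER-associated degradation, 11 rose and none fell in OGT_TG against WT, where 25.2% of all rows rose and 12.2% fell. They included Ddit3 (0.69), a transcription factor of prolonged stress, Ppp1r15a (0.59), which restores translation, and Atf4 (0.45), the factor of the integrated stress response. Without OGT_TG hearts 3 and 6, 7 rose. In DTG against WT 1 rose (Ddit3, 0.53) and 2 fell (Selk, -0.24, and Derl1, -0.16), where 4.21% and 11.4% of all rows did.

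Among 29 tested ER folding and glycoprotein quality control genes outside the rule, 11 rose and 1 fell in OGT_TG against WT, beside the same shares of all rows, 25.2% and 12.2%. They included Txndc5 (0.60), a disulfide isomerase, Ppib (0.40), a prolyl isomerase, and Cnpy3 (0.37). Without OGT_TG hearts 3 and 6, 5 rose. Against WT, none rose in DTG and 4 fell (13.8%, near the 11.4% of all rows), namely Tmx3 (-0.34), Ssr3 (-0.33), Uggt2 (-0.33) and Ero1lb (-0.31). Collagen folding genes of the ER rose in 5 of 10 cases in OGT_TG, where 25.2% of all rows rose, among them P4ha1 (0.77), a collagen prolyl hydroxylase, beside the 8 of 8 fibroblast markers. With OGT_TG hearts 3 and 6 left out, 3 collagen folding genes rose and 1 fell, and 6 fibroblast markers rose. The part of fibroblast RNA in these ER values was not tested.

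Mitochondrial co-chaperones and proteases fell in 10 of 19 cases in OGT_TG against WT and 7 of 19 in DTG against WT, where 12.2% and 11.4% of all rows fell. In OGT_TG they included the proteases Oma1 (-0.54) and Clpp (-0.35) and the Clpp partner Clpx (-0.50), while Atf5 (0.70), a factor of the mitochondrial stress response, rose. The 6 cardiomyocyte markers fell in the same comparison, with a median of -0.38, and their part in the mitochondrial values was not tested. Leaving out OGT_TG hearts 3 and 6 left 8 of these 19 genes and 4 cardiomyocyte markers as falls. Among 25 cytosolic co-chaperones and heat shock factors, 2 rose and 2 fell in OGT_TG, where 25.2% and 12.2% of all rows did, with Fkbp4, an Hsp90 co-chaperone, at -0.73 and Unc45b, the myosin chaperone of striated muscle, at -0.33. DTG against WT had 2 rises, Chordc1 (0.43) and Stip1 (0.23), both Hsp90 co-chaperones, and 3 falls, where 4.21% of all rows rose and 11.4% fell.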

How the data were processed

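Polyadenylated RNA of 24 whole hearts was sequenced from stranded libraries as 100 bp paired-end reads, per the labels' protocols. The authors deposited 1 table of FPKM values on mm10; the submitters' processing notes name FastQC, TopHat, SAMtools, StringTie and Cuffdiff 2.2.1. FPKM holds no counts, so depth is unknown and no counting interval is given. FPKM summed to between 463500 and 513602 per library. Of 19664 rows 4 with missing values were left out, and 343 rows join several symbols.

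Rows with at least 1 FPKM in at least 6 libraries were tested on log2(FPKM + 1), with a pseudocount of 1, by limma 3.58.1 in R 4.3.3. The fit held genotype and sex, an intensity trend and all 24 libraries, with Benjamini-Hochberg adjustment over 12020 rows. The fit was tested on simulated data. Each library is 1 whole heart, per the labels' protocols, and p-values measure the spread between hearts. Any chaperone gene could be named, with a fixed set given whatever its values, up to 10 called genes with the largest changes in each direction per comparison, and up to 4 called genes of each other list. Compartments were assigned by hand from textbook locations.

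The members and all lists were chosen with earlier results of these data known. Other settings were a pseudocount of 0.1, other filters and scalings, no sex term, single-sex fits, only the groups compared, OGT_TG hearts 3 and 6 left out, each heart left out in turn, and the title number as a block. Counts per compartment were added after the data were seen. The labels do not say what the title number is. Deviations of WT and OGT_TG hearts with the same number correlated at 0.216, 0.575, 0.377 and 0.148 over the 4 numbers, and these numbers were taken as the block in that setting. Hearts with the same number there share a sex, and sex was not removed from the deviations. Its part in the correlations was not tested. The 2 ratios were added after their values were seen.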

Additional observations from a re-analysis of the deposited data

Results flagged for a closer look

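Of 96 sets of 6 hearts (24 genes in 4 genotypes), 12 had a heart far from the other 5 of its genotype by Dixon's criterion, which chance alone flags in about 1 of 20 sets. DTG heart 1 gave 6 of them, with Hspa1a at 5.69 FPKM, Hspa1b at 3.53, Hsph1 at 47.3, Hsp90aa1 at 156, Hsp90ab1 at 869 and Dnajb1 at 22.6. OGA_TG heart 4 gave Hspa5 at 365 FPKM and Hsp90b1 at 290. The others were Hspa1b in WT heart 5 at 0.472 FPKM, Hsph1 in WT heart 4 at 20.6, Hspd1 in WT heart 1 at 268 and Dnajb1 in OGA_TG heart 5, low at 7.82. The interaction of the transgenes differed from 0 for Creld2 (-0.50), Dnajc10 (-0.50), Dnajc2 (-0.43) and Hspa13 (-0.52 log2). These were 5.48% of the 73 tested genes, near the 5.49% of all rows with a negative interaction. Creld2 kept its call in 8 and Dnajc2 in 11 of the 32 other settings on both sexes. For all 4 genes the difference between DTG and OGT_TG was more negative than that between OGA_TG and WT. DTG hearts also held more OGT RNA than OGT_TG hearts, which cannot be told apart from the OGA transgene.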

How the results depend on the processing

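Chaperone calls in OGT_TG against WT numbered 31, and 18 without OGT_TG hearts 3 and 6, 13 in males and 7 in females. Cytosolic Hsp70 and Hsp90 rises there numbered 8, against 5 under median-of-ratios scaling, 5 under quantile normalization, 5 without hearts 3 and 6, 4 in males, 2 in females and 5 to 8 with single hearts left out. Mitochondrial falls there numbered 4, against 1 in males and 2 in females. In DTG against WT, 27 calls became 15 after scaling to an equal sum, 1 in males and 2 in females. The 11 ER folding falls became 6 after scaling to an equal sum and 1 in each sex, and the 5 cytosolic rises became 0 in males and 1 in females. In DTG against OGT_TG, 28 calls became 8 in males and 1 in females. The 8 ER folding falls became 4 under median-of-ratios scaling, 5 under quantile normalization, 3 in males and 1 in females. There Cct5, at -0.03 and not called, became 0.11 and called under median-of-ratios scaling. In DTG against OGA_TG, 24 calls became 0 in males and 9 in females, and 11 ER folding falls became 0 in males and 6 in females. In OGA_TG against WT, 0 calls became 1 under median-of-ratios scaling and 1 when only the groups compared were fitted, and 0 to 1 with single hearts left out. The 4 interaction calls became 2 with no filter, 2 under median-of-ratios scaling, 2 without OGT_TG hearts 3 and 6, 0 in males, 0 in females, and 2 to 13 with single hearts left out, 13 being without OGT_TG heart 2. Single-sex fits hold 3 hearts a group, and the cause of the other changes was not tested.

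With the title number as a block, 28 genes were called in OGT_TG against WT (17 rose, 11 fell). Edem1, Pdia3, Dnajc3 and Dnajc12 lost their calls, Dnajb11 gained one (0.17, adjusted p = 0.0475), and no other call of a chaperone gene changed. Over the genes called or fixed for naming and all settings, 7216 values kept their side of the threshold. A further 544 lost a call, 36 gained one and 1 turned. Direction was compared only for values called in the main fit or in the other setting. Values called in neither count as kept even where their sign changed. FPKM gives no counts, so low genes carry an unknown counting error.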
